A study of Mus musculus with 52 samples.

Results

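The complement components and receptors described here are 9 genes: C1qa, C1qb and C1qc, which encode the chains of C1q, C4b, C3, Cfp (properdin), Cfb (factor B), and the receptors C3ar1 and C5ar1. They were taken by symbol from 47729 gene identifiers, and all 9 were among the 17899 genes with enough counts to be tested. RNA was sequenced from 52 tumours grown in Balb/C mice from 4T1 cells, a carcinoma line of mouse mammary gland. The mice were young (8 to 10 weeks in the sample labels, up to 12 weeks in the protocol) or aged (over 12 months). Every mouse received 100000 4T1 cells in the mammary fat pad and was dosed 3 times with 200 µg of an antibody (days 7, 10 and 13), so the control animals carried the same tumour and an isotype antibody (clone LTF-2). The other groups received anti-PD-L1 (clone 10F.9G2) or anti-CTLA4 (clone 9D9), which bind proteins that restrain T cells. The series asked how age and these antibodies change tumour gene expression. In young mice there were 7 libraries under isotype, 10 under anti-PD-L1 and 12 under anti-CTLA4, against 7, 8 and 8 in aged mice.

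Complement is a cascade of plasma and tissue proteins that tags surfaces and calls in myeloid cells. In the classical pathway C1q binds antibody or altered surfaces, and its partner proteases cleave C4 and C2 to form an enzyme that splits C3. In the alternative pathway factor B joins the C3 fragment to form a second such enzyme, and properdin stabilises it. The released fragments C3a and C5a act through the receptors encoded by C3ar1 and C5ar1. The liver makes most circulating C3, C4 and factor B, whereas macrophages are the main source of C1q, and properdin is carried by neutrophils and other leukocytes.

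Total counts ran from 9549847 to 53778370 per library (median 20665733). Libraries are numbered as biological replicates and no animal is named, so a p-value reflects only how these libraries vary, which may in part be technical. Sequencing was in 3 batches, as the labels number them: young isotype lay in batch 2 alone, aged anti-PD-L1 in batch 1 alone, and the 20 anti-CTLA4 libraries in all 3. Counts are given as CPM, scaled to the library total times its TMM factor, and 4 libraries stood apart with a TMM factor under 0.8 (aged isotype replicate 3, young anti-CTLA4 replicate 8, young isotype replicates 1 and 6). The labelled tissue was borne out by its markers, with Epcam at 47.0 to 278 CPM and Krt8 at 222 to 1552 CPM over the libraries. All 12 macrophage markers had counts in every library, from Mertk at a median of 10.0 CPM to Lyz2 at a median of 5163 CPM. Of the 5 liver markers Alb had a median of 0.212 CPM and Fgb of 0.122 CPM, and Apoa1 and Ttr were at 0 in 40 and 48 libraries. Serpina1a had a median of 1.35 CPM, reached 13.7 CPM and was at 0 in 1 library.

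Levels between genes are compared in TPM, which is scaled by gene length. The C1q genes were the most abundant of the 9, with medians over the 52 libraries of 913 TPM for C1qa, 587 TPM for C1qb and 530 TPM for C1qc. C3 followed at a median of 77.7 TPM, with Cfp at 67.7, Cfb at 60.1 and C4b at 28.4 TPM. The receptors were lowest, C3ar1 at 16.4 and C5ar1 at 12.3 TPM. The order of spread was different: the highest library exceeded the lowest 66.7-fold for C3 in CPM, 17.1-fold for Cfb and 14.9-fold for C4b, against 2.69-fold for C1qc, 3.10-fold for C1qb and 3.70-fold for C1qa. Cfp (6.43-fold), C5ar1 (4.63-fold) and C3ar1 (4.13-fold) lay between. The smallest count of any member in any library was 257, for C5ar1, so counting error was small beside the spread between tumours.

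**Figure D1:**
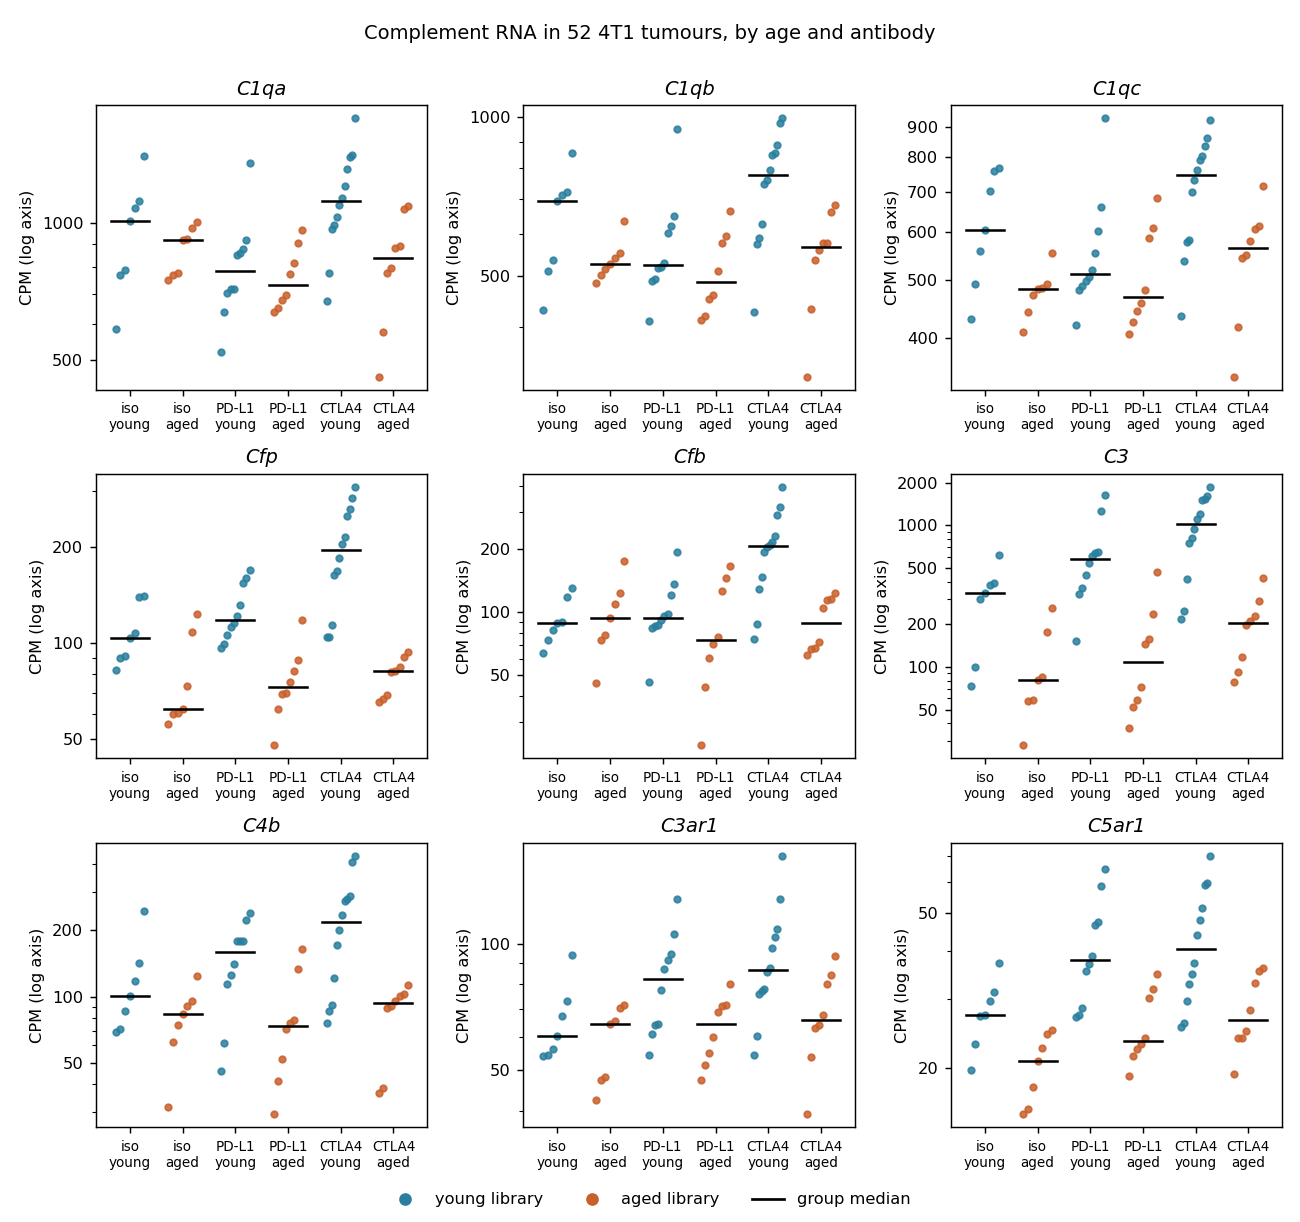
Level of each of the 9 genes in CPM (log axis) in the 52 libraries, by antibody and age, with 1 point per library and a bar at the group median. The C3 medians were 1028 CPM in young and 204 CPM in aged anti-CTLA4 tumours, and for Cfp no aged anti-CTLA4 library reached the lowest young one.

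The genes are protein-coding and all lie on the minus strand (GRCm38 coordinates, GENCODE vM21). C1qb (chr4:136880129-136886187), C1qc (chr4:136889804-136893065) and C1qa (chr4:136895917-136898803) are neighbours within 18675 bases. C3 is at chr17:57203970-57228136, Cfp at chrX:20925454-20931555, C3ar1 at chr6:122847138-122856161 and C5ar1 at chr7:16246743-16259540. C4b (chr17:34728380-34743882) and Cfb (chr17:34856374-34862518) lie in one region of chromosome 17. C4b has a near-identical neighbour, C4a, and 3.06 to 5.38% of the counts of both genes were placed on C4a by group, so the values of C4b and C4a are uncertain. Cfb overlaps the gene models Gm20547 and Mir6972, to which far fewer counts were assigned.

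The 250 bases before RefSeq's transcription start are shown for C3 and Cfp, the genes with the largest age differences under anti-CTLA4, and for C1qb, as one of the 3 C1q genes whose RNA moved together. RefSeq sequences were given for 6 of the 9 genes (GRCm38.p6); C1qa, Cfb and C4b had no entry. Both strands were searched for TTGCNNAA, a motif of C/EBP factors, for TTCNNNGAA, a motif of STAT factors, and for the letters TATAAA of the TATA box. The search also covered the PU.1 motif GAGGAA. The NF-kB motif was taken as GGG, any 5 bases and CC, and the interferon-stimulated response element as a pair of GAAA with any 2 bases between. Matches on either strand are in capitals, and overlapping matches form one run. The sequences run 5′ to 3′ on the minus strand, for C3 at chr17:57228137-57228386, for Cfp at chrX:20931556-20931805 and for C1qb at chr4:136886201-136886450.
C3: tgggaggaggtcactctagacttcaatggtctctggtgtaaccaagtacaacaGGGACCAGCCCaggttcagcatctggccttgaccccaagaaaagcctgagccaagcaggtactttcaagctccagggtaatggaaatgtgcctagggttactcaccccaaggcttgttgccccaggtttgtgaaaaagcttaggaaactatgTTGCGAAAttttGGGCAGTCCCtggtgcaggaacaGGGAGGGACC
Cfp: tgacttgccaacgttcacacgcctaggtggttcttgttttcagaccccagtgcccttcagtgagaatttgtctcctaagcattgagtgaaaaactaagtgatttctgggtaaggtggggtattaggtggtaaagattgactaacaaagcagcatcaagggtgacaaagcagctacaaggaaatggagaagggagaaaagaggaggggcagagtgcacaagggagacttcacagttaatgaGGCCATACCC
C1qb: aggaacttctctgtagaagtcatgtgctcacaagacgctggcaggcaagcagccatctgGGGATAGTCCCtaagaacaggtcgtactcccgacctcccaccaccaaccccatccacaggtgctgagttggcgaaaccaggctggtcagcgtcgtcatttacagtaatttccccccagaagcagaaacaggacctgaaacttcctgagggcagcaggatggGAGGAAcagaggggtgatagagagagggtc
In C3 a TTGCNNAA match began 45 bases before the start, and 4 NF-kB matches began 197, 196, 33 and 10 bases before it. Cfp held 1 NF-kB match, 10 bases before the start. C1qb held 2 overlapping NF-kB matches and a GAGGAA match 30 bases before the start. Of 32851 windows of the same length, 9.56% held TTGCNNAA, 45.8% the NF-kB motif and 23.3% the PU.1 motif. The letters TATAAA, TTCNNNGAA and the interferon element, which 12.4%, 7.02% and 2.98% of the windows held, had no match in these 3 sequences. Such matches describe the letters only.

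Aged tumours held less C3 and Cfp RNA than young ones in the age comparison with the most libraries, that under anti-CTLA4. There 6 of the 9 genes passed the test, all lower in aged tumours: Cfp, C3, C4b, Cfb, C5ar1 and C1qb. The other 3 genes, C1qa, C1qc and C3ar1, had negative values in counts, of which C1qc and C3ar1 were above 0 on the TPM scale (0.01 and 0.05). On that scale the median of all tested genes was higher than either value. The test was edgeR's quasi-likelihood test with sequencing batch in the fit, and the threshold an adjusted p (Benjamini-Hochberg, over all tested genes) of 0.05. This comparison called many genes: 15.9% of all tested genes passed lower in aged tumours and 30.6% in either direction. The median log2 fold change of the 9 genes was -0.62, beside -0.06 for all tested genes. In whole tumours, fewer cells of a type and less RNA per cell cannot be told apart.

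C3, the protein on which all pathways converge, ranged from 218 to 1861 CPM with a median of 1028 in young anti-CTLA4 tumours and from 78.7 to 423 CPM with a median of 204 in aged ones. All 8 aged libraries lay below the young median and 5 below the lowest young library, so the groups overlapped through the 3 highest aged libraries. The means were 1019 ± 550 CPM (SD, n = 12) and 205 ± 115 CPM (SD, n = 8), and the log2 fold change was -2.29 ± 0.54 (SE), 4.88-fold lower, with an adjusted p of 0.00111. Within batch 1 the 4 young libraries held 246 to 1545 CPM and the 7 aged ones 78.7 to 423 CPM, and the fold change there was -2.10 (adjusted p = 0.0124). In batch 3 the only aged library, at 230 CPM, lay below all 5 young ones, which began at 1107 CPM. The 3 young libraries of batch 2 were at 218, 416 and 812 CPM, the low end of the young group.

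Cfp encodes properdin, the stabiliser of the alternative pathway enzyme. Young anti-CTLA4 tumours held 105 to 308 CPM of it with a median of 195, and aged ones 65.7 to 94.2 CPM with a median of 81.7. Cfp was the only one of the 9 genes whose groups did not overlap, in a comparison where 0.911% of all tested genes were lower in aged tumours without overlap. The log2 fold change was -1.49 ± 0.20 (SE), 2.81-fold lower (adjusted p = 9.26e-07), and within batch 1 it was -1.46 (adjusted p = 0.00305). Its partner gene Cfb, the protease subunit of that enzyme, ran from 74.8 to 395 CPM with a median of 207 in young and from 62.4 to 123 CPM with a median of 88.4 in aged tumours. All 8 aged libraries were below the young median of Cfb, but only 4 were below the lowest young library. The log2 fold change of Cfb was -1.20 ± 0.31 (SE), 2.30-fold lower (adjusted p = 0.00282). Within batch 1 Cfb was at -1.24 (adjusted p = 0.0304), and on the TPM scale it did not pass (-0.74, adjusted p = 0.109).

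C4b, the component cleaved by the C1 complex, ran from 76.0 to 437 CPM with a median of 218 in young anti-CTLA4 tumours and from 36.4 to 113 CPM with a median of 93.4 in aged ones. The groups overlapped, since only 2 aged libraries lay below the lowest young one. The log2 fold change was -1.44 ± 0.35 (SE), 2.72-fold lower (adjusted p = 0.00169). The young libraries of batch 2 held 86.4, 91.4 and 122 CPM of C4b, within or just above the aged range, whereas the young medians of batches 1 and 3 were 240 and 271 CPM. Within batch 1 the fold change of C4b was -1.38 (adjusted p = 0.0221), and on the TPM scale, over all batches, it was -1.05 (adjusted p = 0.0513).

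**Figure D2:**
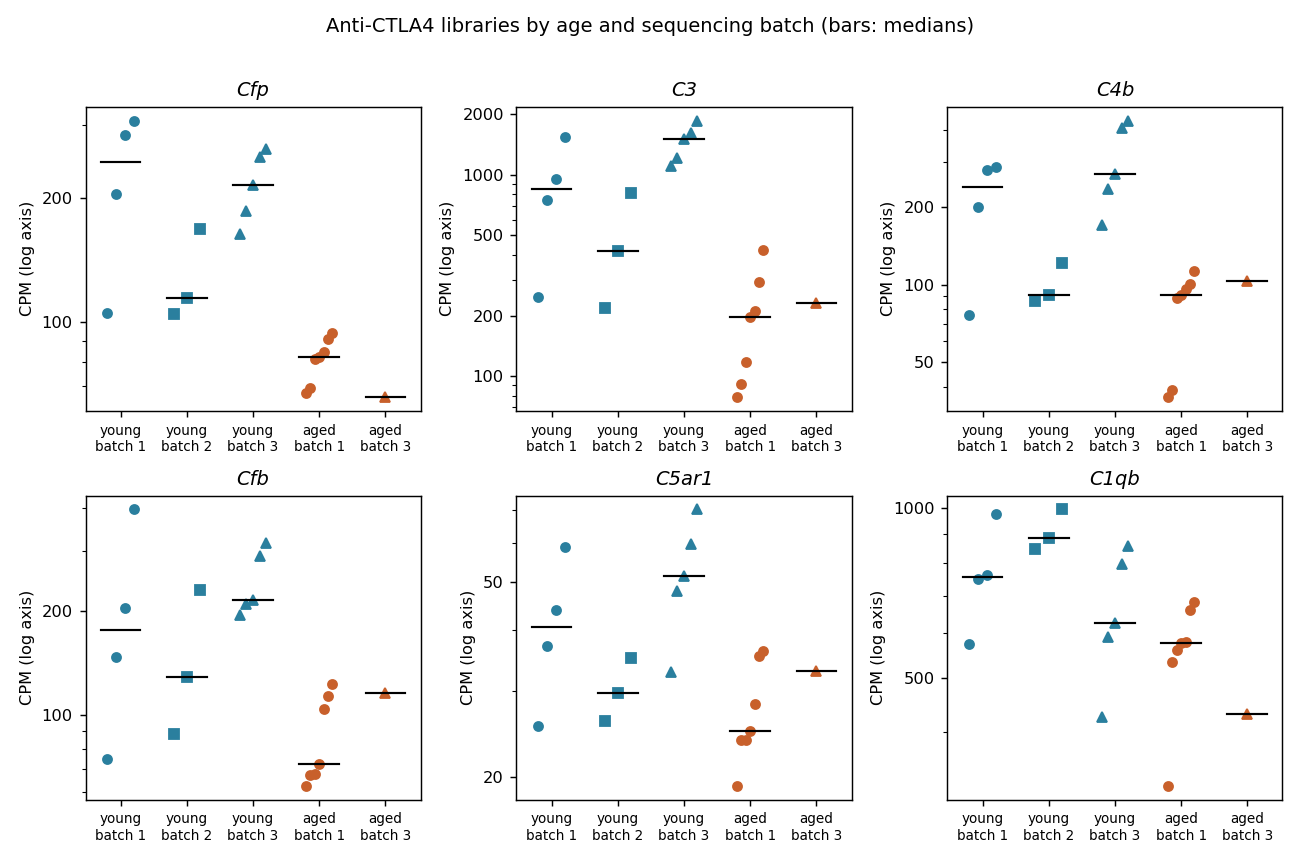
CPM (log axis) of 6 genes in the 12 young and 8 aged anti-CTLA4 libraries, split by sequencing batch, with 1 point per library and a bar at each median. For Cfp the 7 aged libraries of batch 1 reached at most 94.2 CPM and the 4 young ones began at 105 CPM, and for C4b the 3 young libraries of batch 2 lay at 86.4 to 122 CPM, close to the aged ones.

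The C1q genes, which encode the recognition unit of the classical pathway, differed less. C1qb ran from 427 to 996 CPM with a median of 779 in young and from 321 to 682 CPM with a median of 567.9 in aged anti-CTLA4 tumours. All 8 aged libraries were below the young median and 1 was below the lowest young library. The log2 fold change of C1qb was -0.43 ± 0.16 (SE), 1.35-fold lower (adjusted p = 0.0376), and within batch 1 it was -0.44 and did not pass (adjusted p = 0.149). C1qa (-0.45 ± 0.19, adjusted p = 0.0631) and C1qc (-0.34 ± 0.16, adjusted p = 0.0864) had values of like size and did not pass. On the TPM scale the 3 values were -0.09 for C1qa, -0.07 for C1qb and 0.01, of opposite sign, for C1qc, where the median of all tested genes was 0.29 in place of -0.06. The call of C1qb ended without any 1 of 10 libraries (aged replicates 1, 2, 5, 7 and 8, young replicates 2, 6, 8, 9 and 10), with values of -0.43 to -0.31 and adjusted p-values of 0.0501 to 0.195, the last without young replicate 8. C1qa passed without any 1 of 4 libraries (aged replicates 3 and 4, young replicates 5 and 7), at -0.53 to -0.49. Without the 4 libraries of low TMM factor C1qb was at -0.30 (adjusted p = 0.183), and the other 5 genes still passed.

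The receptors bind the small fragments released from C3 and C5. C5ar1, the C5a receptor, ran from 25.4 to 70.2 CPM with a median of 40.5 in young and from 19.2 to 36.1 CPM with a median of 26.5 in aged anti-CTLA4 tumours. The groups overlapped, with 4 of 8 aged libraries below the lowest young one. Its log2 fold change was -0.62 ± 0.20 (SE), 1.54-fold lower (adjusted p = 0.0144), and without young replicate 9 it was -0.51 (adjusted p = 0.0631). Within batch 1 C5ar1 was at -0.58 (adjusted p = 0.0761), and on the TPM scale at -0.22 (adjusted p = 0.647). C3ar1, the C3a receptor, did not pass, at -0.32 ± 0.18 (SE, adjusted p = 0.188), with medians of 86.7 and 65.8 CPM.

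Markers of several cell types moved in the same comparison, where 30.6% of all tested genes passed in either direction. All 10 neutrophil markers passed lower in aged tumours with a median log2 fold change of -2.29, and the level of that list, the mean log2 CPM of its genes, was 3.84 to 6.45 in young and 2.40 to 3.96 in aged libraries. Of 10 interferon-gamma induced genes 9 were lower (levels of 6.89 to 8.17 and 5.52 to 6.92), as were 5 of 7 T cell markers and 5 of 12 macrophage markers (levels of 7.03 to 8.10 and 6.37 to 7.41), while 4 of 6 carcinoma epithelium markers were higher. With the neutrophil level as a covariate, Cfp alone of the 9 genes passed, at -0.62 (adjusted p = 0.0417), and C3 was at -0.95 (adjusted p = 0.455). With the macrophage level as a covariate, Cfp was again the only gene to pass (-0.92, adjusted p = 0.00348), C3 was at -1.72 (adjusted p = 0.074), and C1qa, C1qb and C1qc were at 0.05, 0.02 and 0.06. With the interferon-gamma level Cfp was at -1.28 (adjusted p = 0.000389) and C3 at -1.28 (adjusted p = 0.141). With the carcinoma epithelium level 6 genes passed, with C1qc (-0.58) in place of Cfb (adjusted p = 0.0579), and Cfp was at -1.26 and C3 at -2.35. Part of the marker shift was also seen for age under the other antibodies. Of the 10 neutrophil markers 5 passed lower under anti-PD-L1 (median -2.65) and 0 under isotype (median -1.09). Of the 6 epithelium markers 2 passed higher under each. The T cell and interferon-gamma lists had 0 calls under either.

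Under isotype and under anti-PD-L1 only Cfp passed, lower in aged tumours in both. No batch held isotype libraries of both ages or anti-PD-L1 libraries of both ages, so these age differences have no value within a batch and rest on batch terms estimated from the other groups. Under isotype, 4.04% of all tested genes passed lower in aged tumours (8.41% in either direction), and under anti-PD-L1 1.97% did (5.04% in either direction). The median of the 9 genes was -0.42 and -0.54, beside -0.09 and -0.06 for all tested genes. The ages overlapped for all 9 members, where 1.78% and 1.12% of all tested genes were lower in aged tumours without overlap.

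Cfp held 82.2 to 140 CPM with a median of 104 in young isotype tumours and 55.7 to 124 CPM with a median of 62.4 in aged ones. In 5 of the 7 aged libraries it was below the lowest young library, and 2 lay within the young range. The log2 fold change was -0.97 ± 0.31 (SE), 1.96-fold lower (adjusted p = 0.0411). This call ended without any 1 of 9 libraries (aged replicates 1, 2, 3, 5 and 6, young replicates 1, 2, 5 and 6), with values of -0.98 to -0.87 and adjusted p-values of 0.0517 to 0.0929, and without a batch term Cfp was at -0.47 (adjusted p = 0.107). Under anti-PD-L1, Cfp held 96.8 to 169 CPM with a median of 118 in young and 47.9 to 118 CPM with a median of 72.9 in aged tumours. There 7 of 8 aged libraries were below the lowest young one, and the log2 fold change was -1.30 ± 0.31 (SE), 2.45-fold lower (adjusted p = 0.0118). Leaving out any single library kept this call, and without a batch term it was -0.72 (adjusted p = 0.00674).

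C3 had large age differences in these comparisons too, with wide errors. Under isotype it held 72.8 to 613 CPM with a median of 333 in young and 27.9 to 260 CPM with a median of 80.9 in aged tumours. All 7 aged libraries were below the young median and 3 below the lowest young library. The log2 fold change was -2.39 ± 0.87 (SE, 95% interval -4.15 to -0.63) and did not pass (adjusted p = 0.0752); without a batch term it was -1.56 (adjusted p = 0.0348), and without aged replicate 4 it was -2.82 (adjusted p = 0.0362). Under anti-PD-L1 C3 held 153 to 1644 CPM with a median of 574 in young and 36.9 to 470 CPM with a median of 109 in aged tumours. All 8 aged libraries were below the young median, at -2.73 ± 0.87 (SE, adjusted p = 0.0527), and without a batch term C3 passed at -2.11 (adjusted p = 0.0029). It passed without any 1 of 5 libraries (aged replicates 7 and 8, young replicates 1, 2 and 10), at -3.23 to -2.80 with adjusted p-values of 0.0166 to 0.0456.

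C4b and C5ar1 also missed the threshold under isotype and anti-PD-L1. C4b was at -1.65 ± 0.56 (SE, adjusted p = 0.0547) under isotype, where the group medians were 101 CPM in young and 83.1 CPM in aged tumours, 1.21-fold apart. Without a batch term this value was -0.57 (adjusted p = 0.312), so its size depended on the batch term. Under anti-PD-L1 C4b was at -1.69 ± 0.55 (SE, adjusted p = 0.0597), or -0.88 (adjusted p = 0.0817) without a batch term. C4b passed without any 1 of 3 isotype libraries (aged replicate 3, young replicates 1 and 3; -1.75 to -1.73) or of 5 anti-PD-L1 libraries (aged replicates 7 and 8, young replicates 1, 2 and 10; -1.98 to -1.76). C5ar1 was at -0.78 ± 0.32 (SE, adjusted p = 0.115) under isotype and -0.88 ± 0.32 (SE, adjusted p = 0.0873) under anti-PD-L1, and in the latter passed without young replicate 1 (-1.22, adjusted p = 0.0108) or without a batch term (-0.67, adjusted p = 0.0102).

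The remaining genes lay nearer to 0 under isotype and anti-PD-L1. Cfb was at -0.42 ± 0.47 and -0.54 ± 0.46 (SE), with a higher aged than young median under isotype (94.2 and 89.0 CPM), and C3ar1 at -0.30 ± 0.29 and -0.32 ± 0.29 (SE). The C1q genes lay between -0.07 and 0.08 in both comparisons, with 95% intervals that reached from -0.53 to 0.58. All 7 aged isotype libraries were nevertheless below the young median of C1qa, C1qb and C1qc in CPM, and without a batch term the 3 values were -0.14, -0.25 and -0.37.

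**Figure D3:**
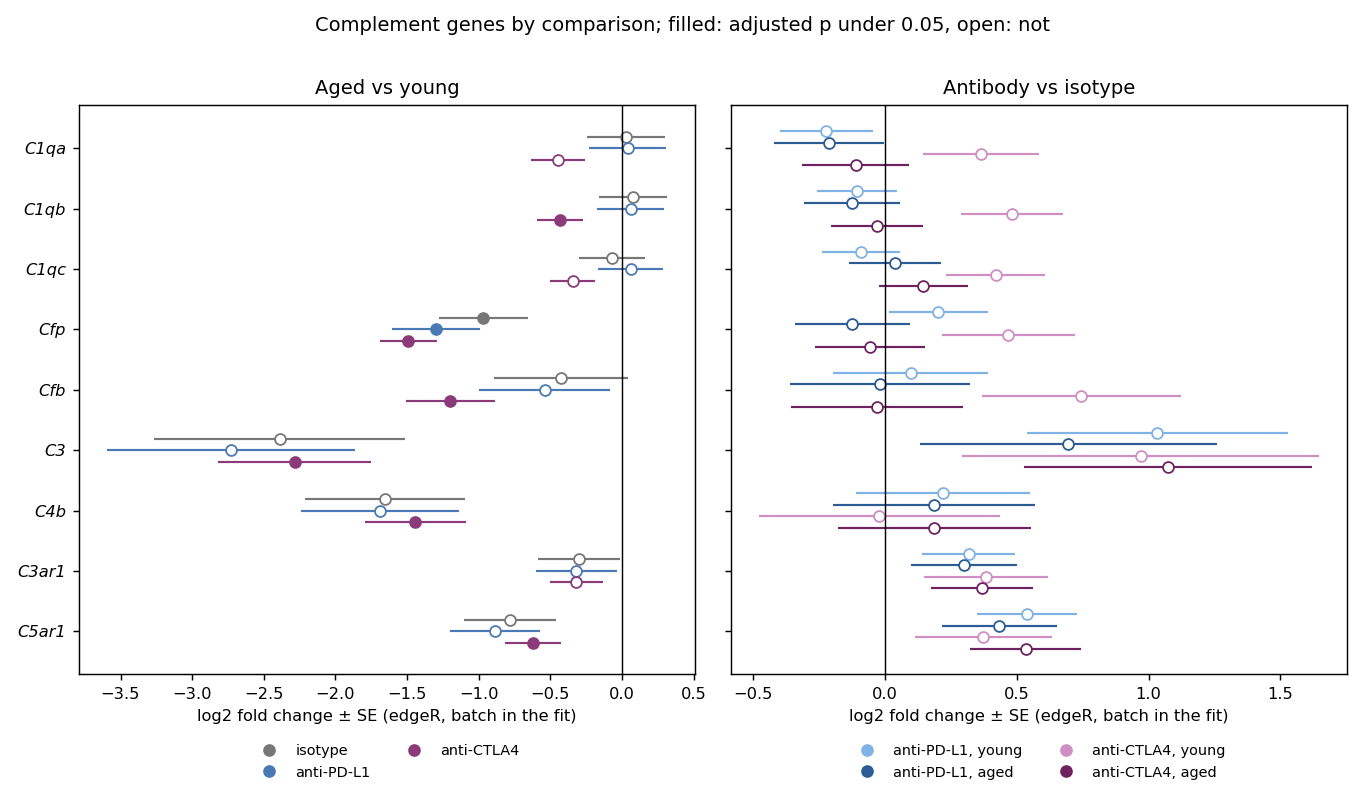
Log2 fold change ± SE of the 9 genes for aged against young tumours under each antibody (left) and for each antibody against isotype at each age (right), from the edgeR fit with batch. Filled points passed at an adjusted p under 0.05: Cfp in all 3 age comparisons, and C3, C4b, Cfb, C5ar1 and C1qb under anti-CTLA4. On the TPM scale C1qc and C3ar1 had the opposite sign there, but lay below the median of all tested genes.

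None of the 9 genes differed by the test between an antibody and isotype at either age, between the antibodies, or in how an antibody effect differed between ages. The share of all tested genes that passed in either direction was 1.59% for anti-PD-L1 and 0.0726% for anti-CTLA4 against isotype in young mice, and 0% in the other 6 of these comparisons. DESeq2 likewise called 0 of the 9 genes in each. Against isotype in young mice it called 149 genes higher and 746 lower of 21696 for anti-PD-L1, and 18 and 50 of 36602 for anti-CTLA4. In aged mice it called 1024 higher and 1431 lower of 11777 for anti-PD-L1, and 567 and 1457 of 10357 for anti-CTLA4. Both antibodies were compared with the same isotype libraries. At an unadjusted p under 0.05 there were 2 members for anti-PD-L1 and 2 for anti-CTLA4 in young mice. In aged mice there were 0 and 1. Of all 17899 tested genes 4339 and 1247 had such a p in young mice, and 5379 and 5321 in aged mice. For anti-CTLA4 against anti-PD-L1 in young mice there were 3 members, beside 1242 of all tested genes. In the other 3 comparisons there were 0 members. The numbers over all genes depended on the fit. With a covariate for the trend of a library's counts with gene length, they were 455 and 262 in aged mice against isotype. In young mice they were 1003 for anti-PD-L1 and 1690 for anti-CTLA4.

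Against isotype, C3 and the receptors C3ar1 and C5ar1 had positive values under both antibodies at both ages. C5ar1 held 19.8 to 37.1 CPM with a median of 27.4 in young isotype tumours and 27.0 to 64.9 CPM with a median of 37.9 in young anti-PD-L1 tumours. The groups overlapped, and the log2 fold change was 0.54 ± 0.19 (SE, 95% interval 0.15 to 0.92, adjusted p = 0.101). In aged mice anti-CTLA4 gave 0.53 ± 0.21 (SE, adjusted p = 0.101), anti-PD-L1 0.43 ± 0.22 (adjusted p = 0.172), and in young mice anti-CTLA4 gave 0.37 ± 0.26 (adjusted p = 0.865). For C3 the 4 values lay between 0.70 and 1.08, with SE from 0.50 to 0.68, and for C3ar1 between 0.30 and 0.38. In aged mice the C3ar1 medians were nearly equal, at 64.4 CPM under isotype, 64.3 under anti-PD-L1 and 65.8 under anti-CTLA4. Its positive values there came from the fit with batch and were not seen in the medians. The 95% interval of C3 for anti-PD-L1 in young mice reached from 0.03 to 2.03.

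Young anti-CTLA4 tumours had the highest median CPM of all 9 genes among the 6 groups. For C1qb the value against isotype in young mice was 0.48 ± 0.19 (SE, adjusted p = 0.534), and for C1qc 0.42 ± 0.19 (SE, adjusted p = 0.621). Against anti-PD-L1 in young mice C1qa, C1qb and C1qc were at 0.59, 0.59 and 0.51 (adjusted p = 0.657, 0.548 and 0.657). All 7 young isotype libraries but only 3 of 12 young anti-CTLA4 libraries came from batch 2. Within that batch the young anti-CTLA4 medians of C3, Cfp, C4b, C5ar1 and C3ar1 were below those of young anti-PD-L1 (C3 at 416 and 611 CPM). Those of C1qa, C1qb, C1qc and Cfb were above. Only the median of C4b was also below that of young isotype (91.4 and 101 CPM). Without a batch term 4 genes passed for anti-CTLA4 against isotype in young mice, namely Cfp (0.87), Cfb (1.17), C3 (1.70) and C5ar1 (0.63), and Cfb (1.00) and Cfp (0.64) passed against anti-PD-L1. With the batch term these values were 0.47, 0.75, 0.97, 0.37, 0.65 and 0.26. Of all 17899 tested genes 699 passed higher and 541 lower against isotype without the term, and 1 and 12 with it. In batch 2 alone, with 3 anti-CTLA4 and 7 isotype libraries of young mice, 0 genes passed higher and 0 lower.

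The test of the difference between ages in the anti-CTLA4 effect gave its smallest adjusted p among the members, 0.634, for C1qb, at -0.51 ± 0.26 (SE, 95% interval -1.03 to 0.01). Cfb was at -0.78 ± 0.50 and Cfp at -0.52 ± 0.32 in that test (SE, adjusted p = 0.638 and 0.636). C3 was at 0.10 ± 0.88 (SE), an interval of -1.67 to 1.88. The age differences that passed under anti-CTLA4 and not under isotype are therefore not shown to differ between the antibodies.

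Of 43 other genes of the complement system 33 could be tested, and 9 of them passed lower and 3 higher in aged than in young tumours under anti-CTLA4, with a median of -0.68 over the 33. Over all tested genes 15.9% passed lower and 30.6% in either direction in that comparison. The 4 of smallest p were Itgb2 and Itgax, which encode the chains of complement receptor 4, at -0.91 ± 0.17 and -1.14 ± 0.26 (SE, adjusted p = 7.41e-05 and 0.000914), and C8a and C8g, chains of a terminal component, at -1.40 ± 0.36 and -0.90 ± 0.25 (SE). C8a and C8g were scarce, with means of 0.719 and 1.07 CPM in young and 0.321 and 0.628 CPM in aged tumours. Itgb2 fell from 200 ± 55.4 CPM (SD, n = 12) to 113 ± 23.0 CPM (SD, n = 8), and all 8 aged libraries were below the young median. In the classical and lectin pathway 4 of 9 tested genes passed lower, namely C1ra, C1rb and C2, which encode proteases, and C4a, the near-identical neighbour of C4b. Among 12 inhibitors 1 was lower, Serping1, the C1 inhibitor (-1.14 ± 0.40, SE, adjusted p = 0.0252), and 2 were higher, among them Clu, which restrains the terminal complex, at 0.60 ± 0.24 (SE, adjusted p = 0.0476).

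Vsig4, the macrophage receptor for C3 fragments, was the receptor gene that passed in the other direction. It held a mean of 1.11 ± 0.94 CPM (SD, n = 12) in young and 3.09 ± 1.25 CPM (SD, n = 8) in aged anti-CTLA4 tumours. Single libraries ran from 0.258 to 3.77 CPM in young and from 1.68 to 5.02 CPM in aged tumours, so the groups overlapped at these low levels. Its log2 fold change was 1.32 ± 0.45 (SE, adjusted p = 0.0218), opposite in sign to Itgax and Itgb2. Under isotype Vsig4 ran from 0.740 to 4.52 CPM in young and from 3.44 to 6.56 CPM in aged tumours, at 1.51 (adjusted p = 0.159), and under anti-PD-L1 it was at 1.04 (adjusted p = 0.382).

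In the other comparisons edgeR called 0 of these 33 genes. Under isotype and anti-PD-L1 6 and 5 of them had an unadjusted p under 0.05 for age. Of all 17899 tested genes 4412 and 3780 did, a larger share in both. The smallest p of the 33 was that of Itgb2 (-0.73, adjusted p = 0.0707, and -0.70, adjusted p = 0.107). DESeq2 called Itgb2 under isotype and Itgb2 and Serping1 under anti-PD-L1, all lower. Between antibody and isotype the smallest p was that of Cd93, a receptor once described as binding C1q, in 3 of 4 comparisons, at 0.72 for anti-PD-L1 in young, 0.83 for anti-PD-L1 in aged and 0.80 for anti-CTLA4 in aged mice (adjusted p = 0.0936, 0.0878 and 0.0956). DESeq2 called Cd93 alone, higher, in both comparisons of aged mice, where 19 and 16 of the 43 other complement genes had an adjusted p. There it called 1024 genes higher and 1431 lower of 11777 for anti-PD-L1, and 567 and 1457 of 10357 for anti-CTLA4. In young mice 8 and 3 of the 33 had an unadjusted p under 0.05 for anti-PD-L1 and anti-CTLA4 against isotype. Of all 17899 tested genes 4339 and 1247 did. In aged mice 3 and 4 of the 33 did, and 5379 and 5321 of all tested genes, a larger share in both. Between the antibodies the number was 2 and 0 in young and aged mice, beside 1242 and 243 of all tested genes. In both tests of a difference between ages it was 0, beside 655 for anti-PD-L1 and 1257 for anti-CTLA4. All these numbers are from the main fit. With a covariate for the trend of a library's counts with gene length, the 5379 and 5321 genes of aged mice became 455 and 262. The 33 genes were not counted in that fit, so the larger shares hold for the main fit only.

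**Figure D4:**
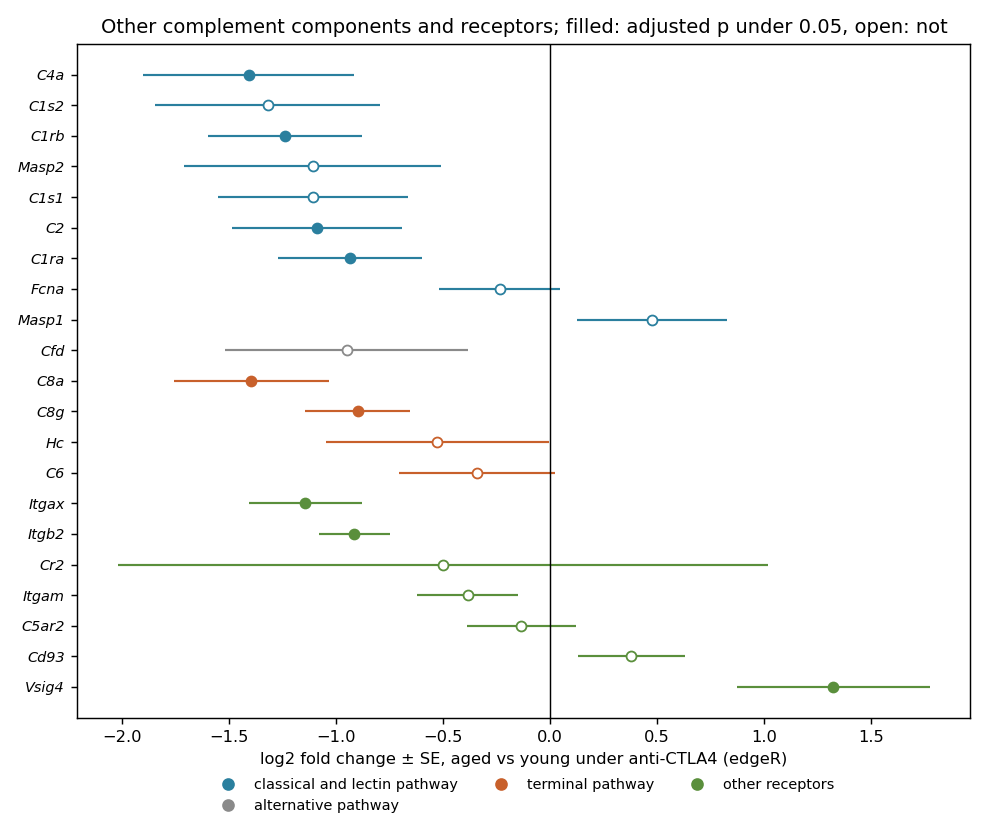
Log2 fold change ± SE of other complement components and receptors, without the inhibitors, for aged against young tumours under anti-CTLA4, coloured by role; filled points passed at an adjusted p under 0.05. The genes of the classical and lectin pathway reach down to -1.41 (C4a), and Vsig4 is the filled point above 0.

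Across the 52 libraries the 9 genes fell into sets that moved together, measured on log2 CPM. C1qa and C1qb had a Pearson r of 0.955 (Spearman rho = 0.946), C1qb and C1qc 0.959 (rho = 0.953) and C1qa and C1qc 0.880 (rho = 0.854), each with a permutation p of 1e-05, the smallest possible with that many resamples, and an adjusted p of 2.57e-05 over the 36 pairs of members. Without the 2 libraries farthest from the median these r were 0.945, 0.951 and 0.863, and within the 3 batches none was under 0.831. The ratio of C1qb to C1qa in TPM had group medians from 0.595 to 0.693, and single libraries ran from 0.495 to 0.744. C1qc to C1qa was lowest in aged isotype tumours, with a median of 0.463 against 0.548 to 0.594 in the other groups.

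C3, C4b, Cfb and Cfp formed the second such set. C3 and C4b had r = 0.820 (rho = 0.811), C3 and Cfp 0.816 (rho = 0.842), Cfb and C4b 0.790 (rho = 0.788) and C3 and Cfb 0.712 (rho = 0.694), with the same permutation p of 1e-05 and adjusted p. Leaving out the 2 farthest libraries gave 0.792, 0.820, 0.780 and 0.663. Within batches 1, 2 and 3 the r of C3 and C4b was 0.889, 0.549 and 0.893, that of C3 and Cfp 0.828, 0.469 and 0.912, and that of C3 and Cfb 0.801, 0.375 and 0.920, so batch 2 had the loosest relation in each. The receptors C3ar1 and C5ar1 had r = 0.871 (rho = 0.863), 0.843 without the 2 farthest libraries and 0.807 to 0.943 within batches.

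Over all 52 libraries the relation between the C1q genes and C3 or C4b was weak. For C1qb and C1qc with C4b it was stronger within batches 2 and 3, with opposite signs. C1qb and C4b had r = 0.128 over all libraries (rho = 0.0592, permutation p = 0.368, adjusted p = 0.402), 0.375 in batch 1, -0.622 in batch 2 and 0.580 in batch 3. C1qc and C4b had r = 0.131 (rho = 0.0902, permutation p = 0.356, adjusted p = 0.400), and 0.345, -0.666 and 0.741 in the batches. Of the 36 pairs 28 passed over all libraries, all positive. After taking out the means of group and batch 14 passed, all positive, and within batch 2 alone 8 positive and 3 negative pairs did.

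Markers of cell types tracked the members in different ways. The macrophage level had r = 0.703, 0.718 and 0.677 with C1qa, C1qb and C1qc (rho = 0.706, 0.734 and 0.699, each with permutation p = 1e-05, adjusted p = 4.13e-05 over 99 relations), 0.703, 0.740 and 0.711 without the 2 farthest libraries, and 0.530 to 0.930 within batches. Cfp followed the neutrophil level with r = 0.860 (rho = 0.853, permutation p = 1e-05), 0.873 without the 2 farthest libraries and 0.873, 0.681 and 0.951 within batches. Cfb followed the T cell level with r = 0.807 (rho = 0.787, permutation p = 1e-05), 0.777 without the 2 farthest libraries and 0.896, 0.571 and 0.770 within batches. C3 had r = 0.733 with the interferon-gamma induced genes (rho = 0.770, permutation p = 1e-05), 0.679 without the 2 farthest, and 0.623, 0.478 and 0.878 within batches. With the fibroblast level the C1q genes had r of -0.481, -0.469 and -0.397, while C3ar1 and C5ar1 had 0.456 and 0.430 (all with adjusted p of 0.00642 or less). The fibroblast relation of C1qb was -0.397, -0.670 and 0.120 within batches, so it did not hold in batch 3. That of C5ar1 was 0.217, 0.772 and 0.690, weakest in batch 1.

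**Figure D5:**
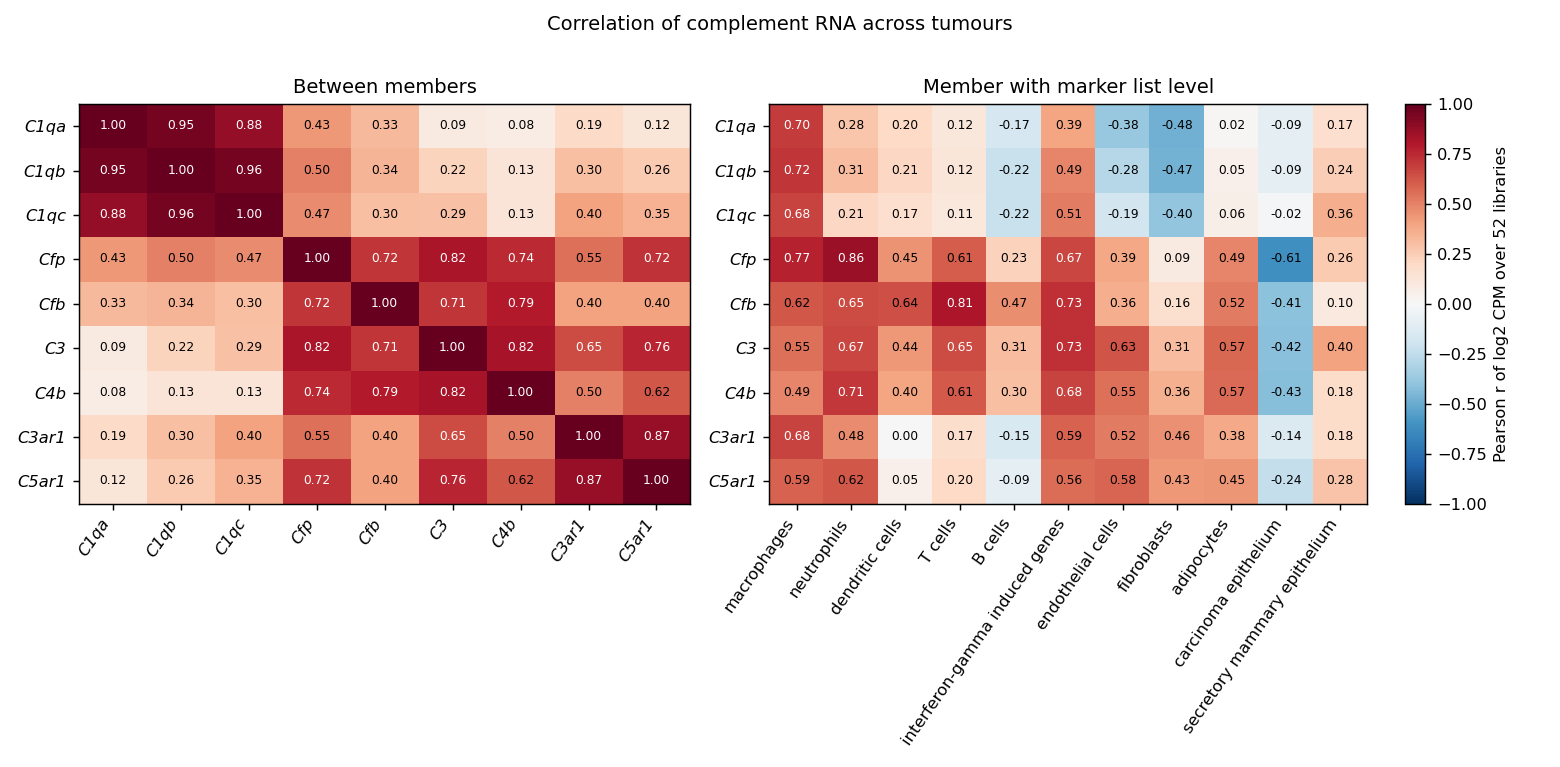
Pearson r of log2 CPM over 52 libraries between the 9 genes (left) and between each gene and the level of 11 marker lists (right), printed in each cell. The block of C1q genes (0.88 to 0.96) stands beside values of 0.08 to 0.29 with C3 and C4b, and the neutrophil list reaches 0.86 with Cfp.

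Among 13165 named genes with a mean of at least 1 CPM, those most like each member over the 52 libraries by Pearson r were largely other than the members. C3 was most like Ttc7 (0.941), C1ra (0.931) and Serping1 (0.924), of which the last 2 are complement genes. Cfp was most like Pdlim4 (0.940), Prr13 (0.913) and Il3ra (0.911), and C4b like Rrbp1 (0.903), Anpep (0.879) and C1rb (0.869). Cfb was most like Ccl5 (0.887), Slfn1 (0.875) and H2-Aa (0.873). For C5ar1 the genes were Emilin2 (0.918), Tnfrsf1a (0.916) and Slc7a8 (0.912), and for C3ar1 they included C5ar1 (0.871) and Gpr35 (0.857). Each C1q gene was most like the other C1q genes, followed by Ldhb (0.824) for C1qa, Acaa1a (0.804) for C1qb and Tbxas1 (0.830) for C1qc.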

How the data were processed

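The 9 members and all gene lists were chosen with earlier results of these data known. Per the submitters' processing notes, Salmon, DESeq2 1.16.1 and the build mm10 were used. The authors deposited estimated counts per gene, already whole numbers, and TPM values for the same 52 libraries. The step from transcripts to genes and the use of strand are not given in the sources used here. GENCODE vM21 gave a symbol for 47224 of the 47729 identifiers and none for 505, and 11075 identifiers had no count in any library. Libraries were stranded poly(A) libraries from 500 ng of RNA with paired reads of 75 bases, per the labels' protocols.

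Counts were tested with edgeR 4.0.16 (R 4.3.3) after filterByExpr (17899 genes) and TMM scaling (factors of 0.618 to 1.21), in 1 quasi-likelihood fit over all libraries with group and sequencing batch and 44 residual degrees of freedom, Benjamini-Hochberg adjusted over all tested genes. The 11 comparisons share groups. Total counts per library are given in the report, and p-values and intervals cover the spread between libraries. Intervals are 95% intervals of the fit. Log2 CPM used a prior count of 2. Correlations used 100000 two-sided permutations. Over 209 pairs within groups the chi-square of the counts per degree of freedom was at least 19.2, so no library was treated as a copy. The 10 most counted genes held 5.56 to 11.2% of a library.

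Named genes are all members, up to 4 other complement genes of smallest p per comparison where any passed or up to 2 where none did, further passing genes by name, and the 3 genes most correlated with each member. Genes beyond that rule (C1ra, C1rb, C2, C4a, Serping1, Clu, Vsig4) were named after their values were seen. Some genes that the rule or the lists would name are not reported here. The marker lists were of macrophages, neutrophils, dendritic cells, T cells, B cells, fibroblasts, adipocytes, endothelial cells, carcinoma and secretory mammary epithelium, interferon-gamma induced genes and liver.

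Alternatives were DESeq2 1.42.0, relative log expression factors, no filter, no batch term, only the groups compared, a replicate block, a length trend and the macrophage level. Others were batch 1 alone, or batch 2 alone between groups of young mice, and limma 3.58.1 on log2(TPM + 0.1) or log2(TPM + 1). The last were leaving out aged isotype replicate 7 or 4 libraries. Chosen after seeing the data were the neutrophil, interferon-gamma and epithelium levels as covariates, and leaving out each library in the age comparisons. The procedure was tested on simulated counts.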

Additional observations from a re-analysis of the deposited data

Results flagged for a closer look

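In 5 of 45 checks of a gene in a group of 4 to 10 libraries, 1 library stood farther from the others than Dixon's 95% limit allows. Chance gives about 1 in 20 where values are normally distributed and checks independent. These checks used CPM without logs, all 5 libraries stood apart on the high side, and the C1q genes vary together. No excess over chance can therefore be read from the 5. The C1q genes account for 3 of the 5, all in young anti-PD-L1 replicate 10. It held 1359.79 CPM of C1qa (next highest 921 CPM), 952.183 CPM of C1qb (next 648 CPM) and 928.995 CPM of C1qc (next 661 CPM), so the 3 chains were high together. It was sequenced in batch 2 with 8 other young anti-PD-L1 libraries. Aged anti-PD-L1 replicate 8 held 469.774 CPM of C3, against 236 CPM in the next library of that group. Young isotype replicate 5 held 244.45 CPM of C4b, against 143 CPM in the next.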

How the results depend on the processing

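Over 2007 values of single members under the alternatives, 1712 kept direction and call, 65 lost a call, 49 gained one, 180 values without a call changed sign, and 1 called value changed sign: C1qb for aged against young tumours under anti-CTLA4, at 0.01682 with the macrophage level as a covariate. For that comparison 6 members were called, all lower, against 1 each with the macrophage, neutrophil or interferon-gamma level, 2 with limma on log2(TPM + 0.1), 3 on log2(TPM + 1), 7 with DESeq2 and 4 in batch 1 alone. Under anti-PD-L1 1 member was called, against 4 with DESeq2 or the length trend, 3 without a batch term or with only the groups compared, and 0 with either limma fit or with the epithelium, interferon-gamma or neutrophil level. Under isotype 1 was called, against 3 with DESeq2, 4 with the length trend, 2 when the 4 libraries with a TMM factor under 0.8 were left out, and 0 with either limma fit, no filter, only the groups compared, or the epithelium, interferon-gamma or neutrophil level. Over all genes the isotype comparison called 781 higher and 724 lower, against 1019 and 1226 with DESeq2 and 2028 and 1895 with the length trend. Leaving out those 4 libraries gave 1499 and 1191. Without a batch term 4 members passed for anti-CTLA4 against isotype and 2 against anti-PD-L1 in young mice, where 0 did with it. Against isotype 699 genes passed higher and 541 lower without the term, and 1 and 12 with it. Leaving out each library gave 4 to 7 members under anti-CTLA4, 1 to 4 under anti-PD-L1 and 0 to 2 under isotype. Without a filter C1qb under anti-CTLA4 was at -0.37 (adjusted p = 0.136), and with the length trend at -0.25 (adjusted p = 0.233), while C3ar1 was at -0.63 (adjusted p = 0.00156). On the TPM scale 4250 genes passed higher and 957 lower in that comparison, against 2644 and 2841 in counts. Of 36 pairs of members 28 were correlated, against 14 after taking out group and batch means, 26, 11 and 21 within batches 1, 2 and 3, and 36 in TPM. Except where a value or the make-up of an alternative shows it, the cause was not tested.

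With the replicate number as a block, 4 members were called for age under anti-CTLA4 (Cfp, C3, C4b and Cfb, at -1.27, -1.90, -1.15 and -1.15), 0 under anti-PD-L1 and 0 under isotype. Libraries that share a number did not deviate together: over 113 such pairs the correlation ran from -0.543 to 0.527 with a median of -0.0201, beside -0.0108 for pairs of different numbers, and 4 of 52 libraries correlated best with their own number.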
